A study of Homo sapiens with 9 samples.

Results

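The genes described here encode molecular chaperones and the enzymes that work with them, in the cytosol and in the endoplasmic reticulum (ER). They were taken as a list of 41 gene symbols, matched to Ensembl gene IDs, out of 58299 genes in the deposited count table. The rule that picks them uses no measured value, but the list was drawn up with earlier results of these data known. The list holds 20 cytosolic heat shock genes, with HSF1 and the mitochondrial pair HSPD1 and HSPE1 counted among them, and 21 ER genes. Small heat shock proteins were not on the list. All 41 passed the filter on low counts, and the lowest count of any of them in any library was 166. The study sequenced polyadenylated RNA from AC16 cells in 3 groups of 3 libraries each. These groups were cells given 100 nM CDDO-Me for 72 h, cells given 100 nM CDDO-Me for 24 h, and cells given the solvent DMSO at 0.1% for 72 h. A solvent group of 24 h was not part of the data used, and the CDDO-Me 24 h and DMSO cells therefore differ both in treatment and in time in culture. AC16 is a human line made by fusing adult ventricular heart cells with SV40-transformed fibroblasts, so it is a dividing hybrid and not heart muscle. Bardoxolone methyl, abbreviated CDDO-Me, is a triterpenoid made by synthesis that is known to bind KEAP1 and release the transcription factor NRF2; the sample titles shorten its name to CDDO. The labels number the replicates but do not say that they were separate cultures, so the p-values measure the spread between these libraries, which may be technical.

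Chaperones bind unfolded stretches of proteins and help them fold, assemble or be destroyed. In the cytosol, HSP70 and HSP90 proteins do this with J-domain partners, nucleotide exchange factors and other co-chaperones, and the transcription factor HSF1 turns on many of their genes when unfolded protein builds up. In the ER, the HSP70 protein BiP (HSPA5), the HSP90 protein GRP94 (HSP90B1), the sugar-binding pair calreticulin and calnexin, and the disulfide isomerases fold secreted and membrane proteins. When these are overloaded, the unfolded protein response raises ER chaperone genes, in part through the sensor IRE1 (gene ERN1), which splices XBP1 mRNA into the form that encodes an active factor. In heart muscle, BAG3 with HSP70 is known for clearing damaged contractile proteins.

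Promoter sequences show the elements through which these responses are known to act. Windows of 300 bases, from 250 before to 50 after an annotated start, were read from RefSeq (build GRCh38.p14). They covered 38 of the 41 genes, 18 cytosolic and 20 ER, but not FKBP4, HSF1 and PDIA3. Each of the 38 genes was read in 1 window, while the shares of all windows count every window listed. Both strands were searched for fixed letters. The ER stress element, spelled CCAAT and then CCACG with 9 bases of any kind between them, lay in 6 of 20 ER windows and in none of the 18 cytosolic ones, and 27 of all 35116 windows (0.08%) held it. Its copies in these genes are given below with the fixed letters in capitals, each read in the orientation of the motif.
HSPA5: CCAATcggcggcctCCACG
XBP1: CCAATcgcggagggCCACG
CALR: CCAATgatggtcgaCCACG
CANX: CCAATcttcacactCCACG
CRELD2: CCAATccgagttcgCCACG
HSP90B1: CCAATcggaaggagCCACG
HSP90B1: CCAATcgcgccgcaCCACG
HSPA5, CANX and XBP1 carry it on the coding strand, CALR and CRELD2 on the opposite strand, and HSP90B1 once on each. The second ER stress element, spelled ATTGG and then CCACG with 1 base of any kind between them, lay in 3 of 20 ER windows (HERPUD1, HYOU1 and SDF2L1), against 0.05% of all windows. The unfolded protein response element TGACGTGG lay in HYOU1 alone among the ER windows, where it overlaps a copy of the second element, against 0.73% of all windows.

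The heat shock element was searched as 3 units in alternating orientation, GAA, TTC and GAA or TTC, GAA and TTC, with 2 bases of any kind between units. It lay in 4 of 18 cytosolic windows (HSPA8, DNAJA1, DNAJB6 and CHORDC1) and in none of the 20 ER windows, against 0.49% of all windows. CHORDC1 holds 3 overlapping matches. Examples are given below in the orientation of the motif, with the units in capitals.
HSPA8: GAAagTTCcaGAA
HSPA8: GAAccTTCcaGAA
DNAJA1: GAActTTCcaGAA
DNAJB6: GAAccTTCgcGAA
CHORDC1: GAAaaTTCgcGAA
The core of the antioxidant response element, TGACNNNGC, to which NRF2 binds with a small MAF protein, lay in 3 of 18 cytosolic windows (AHSA1, DNAJB6 and HSP90AB1) and in 5 of 20 ER windows (CALR, CRELD2, ERN1, SDF2L1 and SEL1L), against 13.3% of all windows. The CHOP and ATF4 element TGATGNAAT was not in any of the 38 windows, against 0.99% of all. A match describes letters and is no shown binding site, and a window without one says nothing of the factor.

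Whole windows are shown for 1 gene of each kind, HSPA5 with its ER stress element and HSPA8 with its 2 heat shock elements, each whole element in capitals, since HSPA5 was, by log2 fold change, the lowest ER gene at 72 h and HSPA8 is the most expressed cytosolic HSP70 gene. The HSPA5 window is chr9:125241294-125241593, minus strand, and the HSPA8 window is chr11:123062087-123062386, minus strand.
HSPA5: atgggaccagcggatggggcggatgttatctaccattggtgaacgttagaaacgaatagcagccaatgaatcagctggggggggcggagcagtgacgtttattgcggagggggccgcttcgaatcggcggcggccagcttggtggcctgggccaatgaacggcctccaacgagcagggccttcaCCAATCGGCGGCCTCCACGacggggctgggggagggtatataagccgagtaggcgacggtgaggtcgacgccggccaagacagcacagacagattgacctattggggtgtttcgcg
HSPA8: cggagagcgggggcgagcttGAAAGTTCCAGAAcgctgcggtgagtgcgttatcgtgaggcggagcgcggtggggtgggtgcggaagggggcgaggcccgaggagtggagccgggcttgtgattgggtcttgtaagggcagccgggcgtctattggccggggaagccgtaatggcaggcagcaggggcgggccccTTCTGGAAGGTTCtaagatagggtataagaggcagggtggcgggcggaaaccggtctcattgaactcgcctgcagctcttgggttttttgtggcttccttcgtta

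The libraries held 16898977 to 27910031 gene counts, and 14965 genes were tested with edgeR's quasi-likelihood test in 1 fit over all 9 libraries. Levels are CPM, a count scaled to the same library total in every sample, after scaling by the trimmed mean of M values (TMM), and a gene is called when its p, adjusted by Benjamini-Hochberg over all genes tested, is under 0.05. The NRF2 targets NQO1, HMOX1, GCLM, TXNRD1 and SRXN1 checked the treatment. Their summed level was 6870 to 6960 CPM in CDDO-Me 72 h, 3310 to 6560 in CDDO-Me 24 h and 1160 to 1350 in DMSO libraries, and 4 of 5 were called higher at 72 h and 1 of 5 (NQO1) at 24 h. Of 10 heart muscle markers, 10 were under 1 CPM in every library and 5 had no count in any. Fibroblast markers summed to 17400 to 17900 CPM in CDDO-Me 72 h, 12700 to 19200 in CDDO-Me 24 h and 15200 to 16500 in DMSO libraries. The third CDDO-Me 24 h library stood apart. Its biological coefficient of variation against the other two of its group was 20.9% and 19.9%, where those differed by 6.38%, and the 3 CDDO-Me 72 h libraries differed from each other by 2.73% to 3.31%. The first DMSO library differed from the other two by 12.1% and 13.9%, against 7.79% between those. Counts of called chaperone genes are therefore given with and without the third CDDO-Me 24 h library, as are some other counts and values. The remaining values at 24 h are given with all 9 libraries only. With that library left out, 5 of 5 NRF2 targets were called higher than in DMSO libraries at 72 h, and 5 of 5 at 24 h.

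The comparison of CDDO-Me 72 h with DMSO asks what treatment did at the same culture time. No gene of the 41 was called, and most ER genes had fold changes below 1 that were small. HSPA5 averaged 801 ± 19.2 CPM in CDDO-Me 72 h and 1056 ± 53.4 CPM in DMSO libraries, and CALR, encoding calreticulin, 1017 ± 7.59 CPM and 1283 ± 19.3 CPM in the same order of groups (SD, n = 3 each). HSPA1B, an inducible cytosolic HSP70 gene, had the highest log2 fold change, at 119 ± 7.68 CPM in CDDO-Me 72 h and 89.2 ± 15.4 CPM in DMSO libraries. The median log2 fold change was -0.15 over the 21 ER genes, 19 of them negative, 0.02 over the 20 cytosolic genes, 12 of them positive, and 0.00 over all genes tested.

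In that comparison edgeR called 6.02% of all genes tested, 2.89% higher and 3.13% lower, and 0 of 41 chaperone genes. At an unadjusted p under 0.05 the counts were 2 higher and 6 lower of 41, against 18.6% of all genes. DESeq2 called 2 of 41 (HSPA5 and CALR, both lower) and 1207 of 14965 genes in all, limma-voom 0 of 41 and 788 in all, and limma-voom with weights per library 9 of 41 and 2604 in all. The 3 libraries of one group lay entirely apart from the 3 of the other for 18 of 41, against 30.7% of all genes. In detail, 11 of 21 ER genes were lower in every CDDO-Me 72 h library than in every DMSO library and 0 were higher, where 15.2% of all genes were lower and 15.5% higher in this way. Of the 20 cytosolic genes 6 were higher and 1 was lower. The 95% intervals of all 41 lay within a 2-fold change either way and those of 37 within 1.5-fold, the lowest bound being -0.65 on the log2 scale (HSPA5) and the highest 0.73 (HSPA1B).

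Without the third CDDO-Me 24 h library, which is in neither of these groups but enters the shared estimate of spread, 7 of 41 were called at 72 h against 12.9% of all genes, 6.26% higher and 6.62% lower. HSPA5, CALR, XBP1, PDIA3 and DNAJC3 were lower, and HSPA1B and FKBP4 higher. The fold changes themselves were nearly the same, -0.40 for HSPA5 and -0.33 for CALR with and without it, and the fit over the 2 groups alone called HSPA5, CALR and XBP1 lower and HSPA1B and FKBP4 higher, with 1776 of 14534 genes called in all.

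The comparison of CDDO-Me 24 h with DMSO had no called gene among the 41 either. Cytosolic genes leaned low, with a median log2 fold change of -0.05 and 18 of 20 negative, and ER genes had a median of -0.06 with 16 of 21 negative, where the median of all genes was 0.01. The gene nearest to a call was HSPH1, encoding the HSP110 exchange factor of HSP70. edgeR called 2.15% of all genes, 0.969% higher and 1.18% lower, and 0 of 41 here, with 1 higher and 6 lower at an unadjusted p under 0.05, against 12.8% of all genes. DESeq2 called 1 of 41 (HSPH1, lower) and 546 of 14965 genes in all, limma-voom 0 of 41 and 301 in all, and limma-voom with weights per library 4 of 41 and 1640 in all. Groups lay apart for 3 of 20 cytosolic genes, all lower (HSPA8, HSPH1 and BAG3), and for 3 of 21 ER genes, with HSPA5 and CALR lower and EDEM1 higher, against 6.74% of all genes lower, 6.73% higher and 13.5% either way. All 41 intervals lay within a 1.5-fold change, from -0.52 (CHORDC1) to 0.47 (HSPA1B). Without the third CDDO-Me 24 h library HSPH1, DNAJB4 and HSPD1 were called lower, 3 of 41 against 10.8% of all genes (5.71% higher, 5.11% lower). The median was then 0.00 over the ER genes and -0.13 over the cytosolic genes, and HSPA5 had -0.10, against -0.26 with all libraries.

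The comparison of CDDO-Me 72 h with CDDO-Me 24 h held the only call. DNAJB4, a cytosolic J-domain partner of HSP70, was higher at 72 h, 1 of 41 against 1.02% of all genes, 0.448% higher and 0.568% lower. Cytosolic genes leaned high at 72 h, with a median log2 fold change of 0.16 and 17 of 20 positive, and ER genes low, with a median of -0.09 and 18 of 21 negative, where the median of all genes was -0.01. At an unadjusted p under 0.05 there were 5 higher and 3 lower of 41, against 13.2% of all genes. DESeq2 called DNAJB4 and EDEM1 and 388 of 14965 genes in all, limma-voom DNAJB4 and 115 in all, and limma-voom with weights per library 15 of 41 and 2938 in all. Groups lay apart for 6 of 20 cytosolic genes, all higher, and for 3 of 21 ER genes, all lower (SYVN1, EDEM1 and ERN1), against 10.8% of all genes higher, 10.2% lower. The widest bounds of the 41 intervals were -0.61 (ERN1) and 0.73 (DNAJB4), and 38 intervals lay within 1.5-fold. This comparison shares its treated libraries with the other two, which in turn share the DMSO libraries, so the 3 sets of values are not independent.

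Without the third CDDO-Me 24 h library, 12 of 41 were called between 72 h and 24 h, against 12.0% of all genes (5.19% higher, 6.84% lower). The cytosolic genes HSPA8, HSPH1, HSP90AA1, DNAJA1, DNAJB4 and FKBP4 were higher at 72 h, and the ER genes HSPA5, CALR, SYVN1, EDEM1, ERN1 and XBP1 were lower. No cytosolic gene was called lower and no ER gene higher in that fit. The first DMSO library was then left out as well. At 72 h against DMSO, 5 cytosolic genes (4 higher, 1 lower) and 5 ER genes (all lower) were called. Of all genes, 17.9% were called there, 8.72% higher and 9.20% lower. At 24 h against DMSO, 7 cytosolic genes (2 higher, 5 lower) and 3 ER genes (all higher) were called. The share of all genes was 22.8%, 12.0% higher and 10.8% lower. At 72 h against 24 h, 7 cytosolic genes (all higher) and 10 ER genes (all lower) were called. The share of all genes was 22.8%, 10.5% higher and 12.3% lower.

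**Figure D1:**
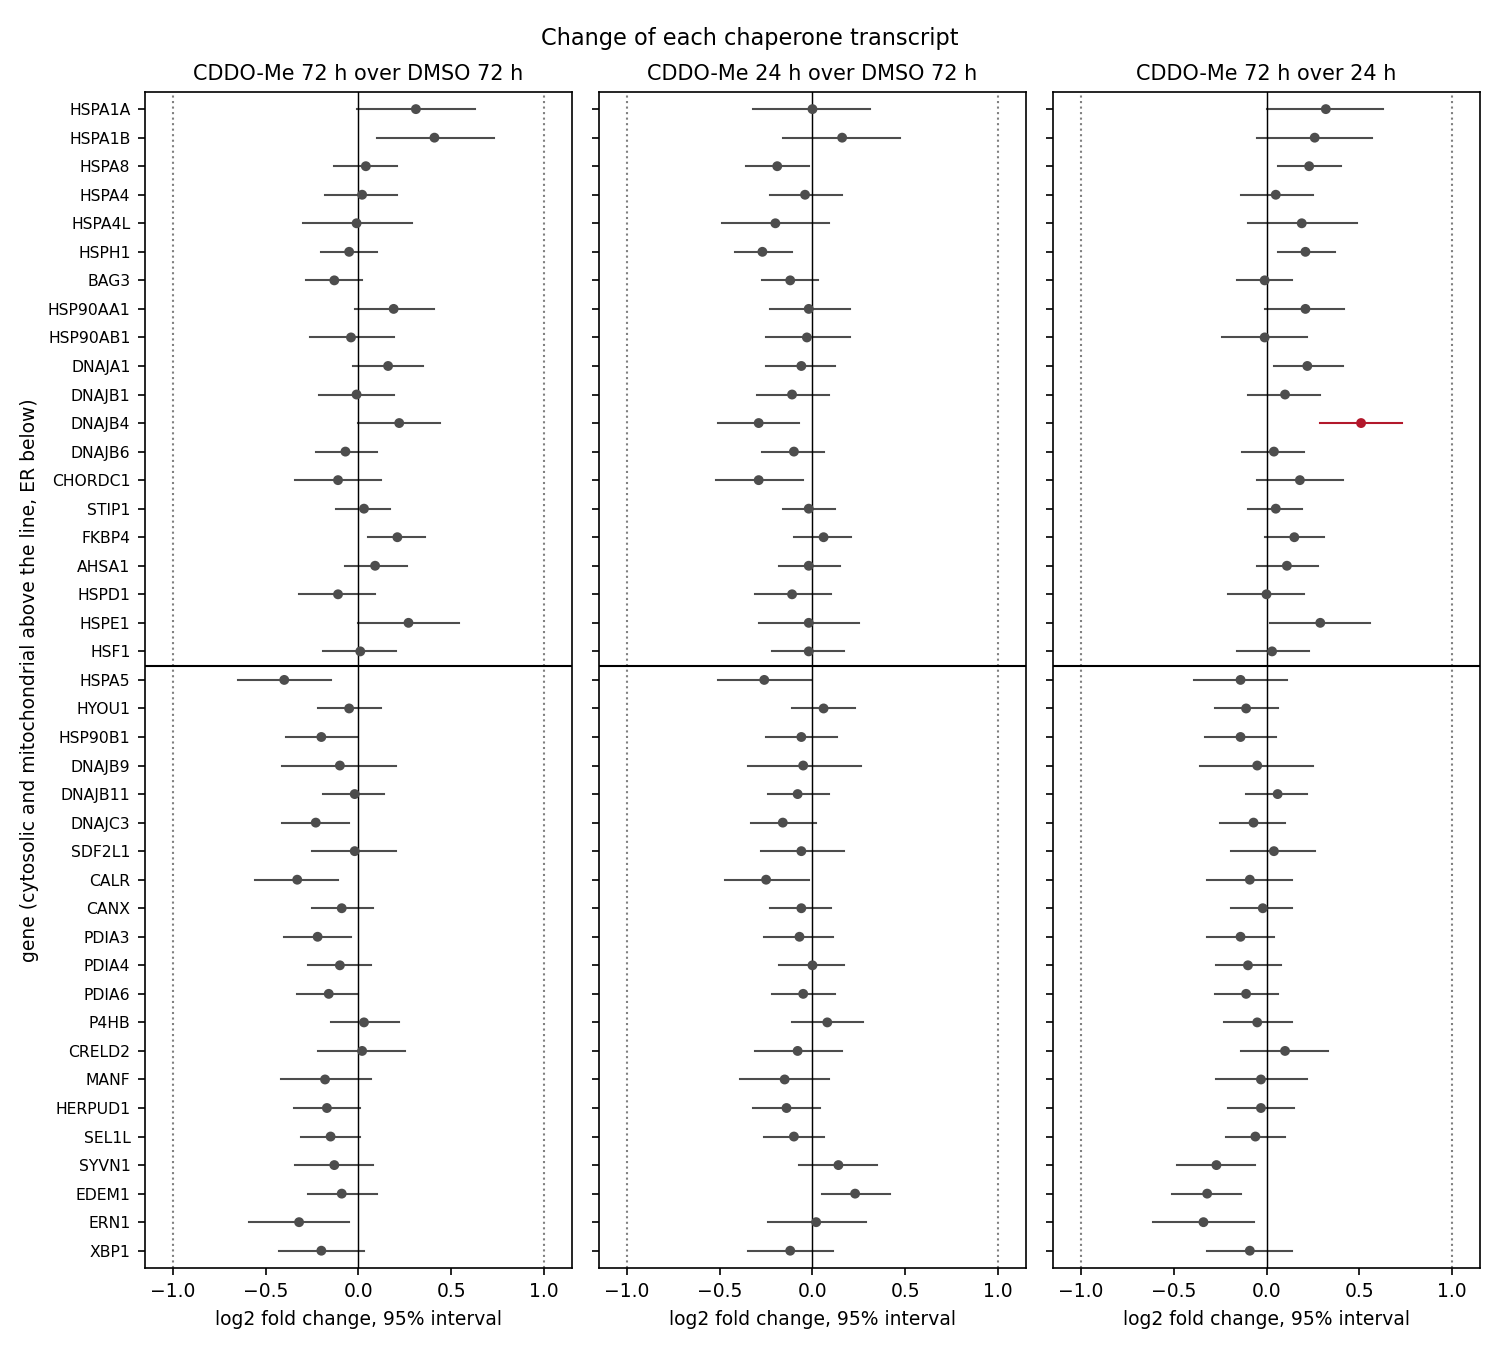
Log2 fold change (x axis) of each of the 41 genes (y axis, cytosolic and mitochondrial above the line, ER below) in the 3 comparisons. Points are edgeR estimates, bars 95% intervals over 9 libraries, dotted lines a 2-fold change, and red marks the only called gene, DNAJB4 at 0.51 between 72 h and 24 h. Every bar stays inside the dotted lines, and most ER points sit left of 0 in the 72 h against DMSO panel.

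Among ER chaperones proper, HSPA5 (chr9:125234853-125241330, minus strand, GRCh38) encodes BiP, the ER's HSP70. It had 786, 822 and 794 CPM in CDDO-Me 72 h libraries, 984, 986 and 681 CPM in CDDO-Me 24 h libraries and 1068, 997 and 1102 CPM in DMSO libraries. All 3 CDDO-Me 72 h libraries were below all DMSO libraries, and the third CDDO-Me 24 h library, at 681, was below every 72 h library while the other two of its group lay just below the lowest DMSO library. The log2 fold change was -0.40 ± 0.12 (SE) at 72 h against DMSO (adjusted p = 0.061), a fold of 0.758, and over 19 alternative settings its adjusted p ranged from 2.47e-06 to 0.212. Between 72 h and 24 h it was -0.14 ± 0.12 (SE) (adjusted p = 0.653), and -0.30 without the third CDDO-Me 24 h library (adjusted p = 0.00471, range over the alternatives 0.000153 to 0.939). HSP90B1, the ER's HSP90, was lower in every CDDO-Me 72 h library (742 to 772 CPM) than in every DMSO library (787 to 931 CPM), with a log2 fold change of -0.20 ± 0.09 (SE) (adjusted p = 0.242). HYOU1, the ER's HSP110-like exchange factor, overlapped between the groups in all 3 comparisons.

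CALR (chr19:12938578-12944489, plus strand) encodes calreticulin, a soluble lectin that holds newly made glycoproteins and buffers ER calcium. It had 1012, 1014 and 1026 CPM in CDDO-Me 72 h libraries, 1242, 1140.0 and 865 CPM in CDDO-Me 24 h libraries and 1291, 1296 and 1261 CPM in DMSO libraries. Treated libraries at 72 h were nearly alike and all below DMSO, and the third CDDO-Me 24 h library was again the lowest of all 9. At 72 h against DMSO the log2 fold change was -0.33 ± 0.11 (SE) (adjusted p = 0.0843), with adjusted p from 2.24e-05 to 0.257 over the alternatives. Its membrane-bound relative calnexin (CANX) was also lower in every 72 h library, 840.2 ± 2.85 CPM in CDDO-Me 72 h and 892 ± 17.9 CPM in DMSO libraries (SD, n = 3 each), but by less, -0.09 on the log2 scale. Of the 4 disulfide isomerases, which make and rearrange disulfide bonds, PDIA3 had -0.22, PDIA6 -0.16, PDIA4 -0.10 and P4HB 0.03 in the same comparison, and none was called.

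Of the J-domain partners of BiP, DNAJB9, which is known to bring BiP to IRE1, had 9.64, 8.86 and 10.5 CPM in CDDO-Me 72 h libraries, 9.66, 11.4 and 9.06 CPM in CDDO-Me 24 h libraries and 11.3, 9.43 and 10.4 CPM in DMSO libraries. The groups overlapped, and its interval at 72 h against DMSO was -0.41 to 0.20. SDF2L1, a partner of the J-domain protein DNAJB11, had 53.7, 50.5 and 55.2 CPM in CDDO-Me 72 h libraries, 57.5, 54.6 and 43.3 CPM in CDDO-Me 24 h libraries and 57.5, 54.3 and 49.97 CPM in DMSO libraries. The third CDDO-Me 24 h library was the lowest of all 9, and the groups overlapped. The log2 fold changes against DMSO were -0.02 ± 0.11 (SE) at 72 h and -0.06 ± 0.11 (SE) at 24 h, and DNAJB11 had -0.02 and -0.08. DNAJC3, which also restrains the kinase PERK, was below DMSO in every 72 h library with a log2 fold change of -0.23 ± 0.08 (SE) (adjusted p = 0.13). The secreted ER proteins MANF and CRELD2, both known to be raised by ER stress, had -0.18 and 0.02 at 72 h.

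Genes of ER-associated degradation, which returns misfolded proteins to the cytosol for the proteasome, were not called in any comparison. HERPUD1, a membrane organiser of that machinery and a classical stress-raised gene, had 64.7, 71.1 and 68.6 CPM in CDDO-Me 72 h libraries, 71.4, 73.5 and 63.4 CPM in CDDO-Me 24 h libraries and 74.6, 72.97 and 81.5 CPM in DMSO libraries. Every 72 h library was below every DMSO library, by a narrow margin, and the log2 fold change was -0.17 ± 0.08 (SE) (adjusted p = 0.315). EDEM1, which trims mannose from misfolded glycoproteins, had 45.7, 41.9 and 38.2 CPM in CDDO-Me 72 h libraries, 53.3, 52.1 and 51.9 CPM in CDDO-Me 24 h libraries and 46.2, 42.8 and 44.8 CPM in DMSO libraries. The 3 CDDO-Me 24 h libraries, the third included, lay within a narrow range and were above all other libraries. Its log2 fold change was 0.23 ± 0.09 (SE) at 24 h against DMSO (adjusted p = 0.232) and -0.32 ± 0.09 (SE) at 72 h against 24 h (adjusted p = 0.105), the second called by DESeq2 and without the third CDDO-Me 24 h library. SYVN1, the ubiquitin ligase HRD1, had 0.14 at 24 h against DMSO and -0.27 ± 0.10 (SE) between 72 h and 24 h (adjusted p = 0.253), and its adaptor SEL1L -0.10 and -0.06.

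ERN1 (chr17:64039142-64130819, minus strand), the gene of the sensor IRE1, had 12.4, 13.3 and 12.1 CPM in CDDO-Me 72 h libraries, 15.8, 17.7 and 14.4 CPM in CDDO-Me 24 h libraries and 17.3, 15.8 and 13.98 CPM in DMSO libraries. It was the lowest ER gene per kilobase of exon, and all 3 libraries at 72 h were below all others. The log2 fold change was -0.32 ± 0.13 (SE) against DMSO (adjusted p = 0.179) and -0.34 ± 0.13 (SE) against 24 h (adjusted p = 0.26, 0.0391 without the third CDDO-Me 24 h library, range over the alternatives 0.00824 to 0.647). XBP1 (chr22:28794555-28800597, minus strand), whose mRNA IRE1 splices, had 124, 129 and 125 CPM in CDDO-Me 72 h libraries, 153, 143 and 106 CPM in CDDO-Me 24 h libraries and 151, 140.4 and 143 CPM in DMSO libraries. The 72 h libraries were all below DMSO, and the third CDDO-Me 24 h library was below all others. At 72 h against DMSO the log2 fold change was -0.20 ± 0.11 (SE) (adjusted p = 0.334). Gene counts do not tell spliced from unspliced XBP1, so the activity of IRE1 was not measured.

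**Figure D2:**
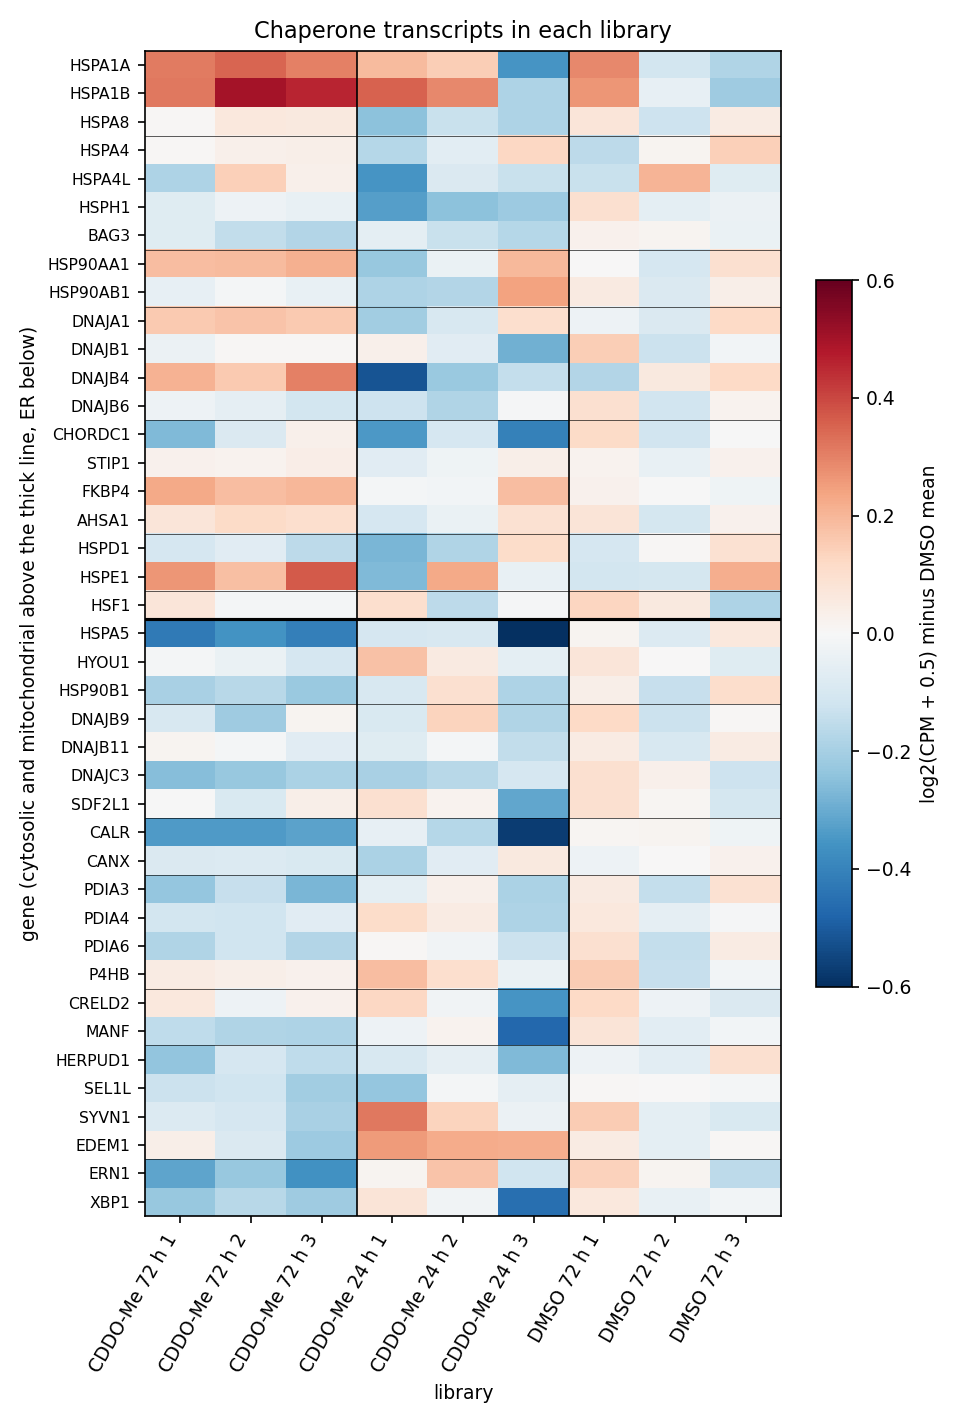
Level of each of the 41 genes (rows) in each of the 9 libraries (columns), as log2(CPM + 0.5) minus the mean of the 3 DMSO libraries. Red is higher and blue lower than DMSO, the thick line parts cytosolic and mitochondrial from ER genes, thin lines part the roles, and colours stop at 0.6. The rows of HSPA5, CALR and XBP1, which are not adjacent, are blue in the 3 CDDO-Me 72 h libraries and darkest in the third CDDO-Me 24 h library.

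Of the cytosolic genes, HSF1, the heat shock transcription factor, did not stand apart anywhere. It had 169.7, 160.0 and 160.1 CPM in CDDO-Me 72 h libraries, 173, 145 and 161 CPM in CDDO-Me 24 h libraries and 176, 168 and 142 CPM in DMSO libraries. The groups overlapped fully, and its log2 fold changes were 0.01 ± 0.09 (SE) at 72 h and -0.02 ± 0.09 (SE) at 24 h against DMSO, with an interval at 72 h of -0.19 to 0.20. HSF1 acts mainly through its protein's release and binding, which mRNA does not show. Of the inducible HSP70 genes, HSPA1B (chr6:31827735-31830255, plus strand) had 110.2, 125 and 121 CPM in CDDO-Me 72 h libraries, 113, 108 and 77.5 CPM in CDDO-Me 24 h libraries and 106, 85.2 and 76.1 CPM in DMSO libraries. All libraries at 72 h were above DMSO, the first DMSO library was nearest to them, and the third CDDO-Me 24 h library was in the DMSO range. The log2 fold change at 72 h was 0.41 ± 0.14 (SE) (adjusted p = 0.129), 0.56 without the first DMSO library (adjusted p = 0.0429, range over the alternatives 3.69e-07 to 0.332). HSPA1A, beside it on chromosome 6, had 44.7, 45.8 and 44.4 CPM in CDDO-Me 72 h libraries, 41.04, 39.8 and 27.96 CPM in CDDO-Me 24 h libraries and 43.99, 33.2 and 31.6 CPM in DMSO libraries. The 72 h libraries were above DMSO by a narrow margin, and the third CDDO-Me 24 h library was below all others. The log2 fold change was 0.31 ± 0.15 (SE) at 72 h (adjusted p = 0.28).

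HSPA1A and HSPA1B are near-identical in sequence, and the handling of reads that match both was not given in the sources used here, so their split is uncertain. Summed, they had 155, 171 and 166 CPM in CDDO-Me 72 h, 154, 148 and 106 in CDDO-Me 24 h and 150.1, 118 and 108 in DMSO libraries. The sum's log2 fold change was 0.39 ± 0.14 (SE) at 72 h against DMSO (adjusted p = 0.161) and 0.11 ± 0.14 at 24 h (adjusted p = 0.816). HSPA8, the constitutive HSP70 and the most abundant by exon length of the 3, had 2320.0, 2410.0 and 2405 CPM in CDDO-Me 72 h libraries, 1948, 2107 and 2028 CPM in CDDO-Me 24 h libraries and 2425, 2122 and 2392 CPM in DMSO libraries. The 24 h libraries were all lower than those of both other groups. Its log2 fold changes were -0.19 ± 0.08 (SE) at 24 h against DMSO (adjusted p = 0.32) and 0.23 ± 0.08 (SE) at 72 h against 24 h (adjusted p = 0.224). HSPA8, HSPD1, HSPE1 and the HSP90 genes also have processed copies in the genome, and reads shared with them could not be told apart here.

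DNAJB4 (chr1:77979175-78017964, plus strand) gave the only call among the J-domain genes. It had 113, 109 and 120.1 CPM in CDDO-Me 72 h libraries, 67.8, 83.4 and 88.1 CPM in CDDO-Me 24 h libraries and 86.1, 102 and 106 CPM in DMSO libraries. All 72 h libraries were above all libraries of both other groups, and the first CDDO-Me 24 h library was the lowest. Between 72 h and 24 h the log2 fold change was 0.51 ± 0.10 (SE) with an interval of 0.29 to 0.73 (adjusted p = 0.0299), a fold of 1.42. Its values against DMSO were 0.22 ± 0.10 (SE) at 72 h (adjusted p = 0.273) and -0.29 ± 0.10 (SE) at 24 h (adjusted p = 0.208), neither called. The call held under 12 of 19 alternatives, and was lost in the fit of the 2 groups alone (adjusted p = 0.0512), without CDDO-Me 24 h replicate 1 or 2, without any single CDDO-Me 72 h library and without DMSO replicate 2, with adjusted p from 7.56e-07 to 0.201 and log2 fold changes from 0.41 to 0.59 over all 19. DNAJB1, the J-domain gene most used as a marker of the heat shock response, had 165, 170.1 and 170.1 CPM in CDDO-Me 72 h libraries, 173, 162 and 138 CPM in CDDO-Me 24 h libraries and 187, 154 and 167 CPM in DMSO libraries. Its groups overlapped, with -0.01 ± 0.09 (SE) at 72 h and -0.11 ± 0.09 (SE) at 24 h against DMSO. DNAJA1 was higher in every 72 h library than in every other one, with 0.22 ± 0.09 (SE) against 24 h (adjusted p = 0.289), and DNAJB6, which keeps aggregation-prone proteins soluble, overlapped throughout.

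Among the exchange factors of HSP70, HSPH1 had 243, 250.1 and 248 CPM in CDDO-Me 72 h libraries, 204, 216 and 220.0 CPM in CDDO-Me 24 h libraries and 273, 245 and 249.8 CPM in DMSO libraries. The 24 h libraries, the third included, were below all others, and the 72 h and DMSO libraries overlapped. Its log2 fold change was -0.27 ± 0.07 (SE) at 24 h against DMSO (adjusted p = 0.0755), 0.00933 without the third CDDO-Me 24 h library and 0.00449 to 0.311 over the alternatives. BAG3, the exchange factor of chaperone-assisted autophagy and a gene that HSF1 raises, had 165, 156 and 154 CPM in CDDO-Me 72 h libraries, 166, 158 and 154 CPM in CDDO-Me 24 h libraries and 176, 175 and 169 CPM in DMSO libraries. Both treated groups were below DMSO in every library, with log2 fold changes of -0.13 ± 0.07 (SE) at 72 h (adjusted p = 0.329) and -0.12 ± 0.07 (SE) at 24 h (adjusted p = 0.509), neither called. HSPA4 and HSPA4L, the other HSP110 genes, overlapped in all comparisons.

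HSP90AA1, the inducible cytosolic HSP90 gene, had 2530.0, 2536 and 2572 CPM in CDDO-Me 72 h libraries, 1900.0, 2161 and 2546 CPM in CDDO-Me 24 h libraries and 2229, 2071 and 2379 CPM in DMSO libraries. The 72 h libraries were above DMSO, and the third CDDO-Me 24 h library matched them while the other two were lower. Its log2 fold change was 0.19 ± 0.10 (SE) at 72 h against DMSO (adjusted p = 0.325). Between 72 h and 24 h it was 0.21 ± 0.10 (SE) (adjusted p = 0.392), and 0.33 without the third CDDO-Me 24 h library (adjusted p = 0.00631, range over the alternatives 0.000218 to 0.773). HSP90AB1, the constitutive one, had -0.04 ± 0.11 (SE) at 72 h against DMSO, and the third CDDO-Me 24 h library was the highest of all 9 at 2525 CPM. Of the HSP90 co-chaperones, FKBP4, the immunophilin of steroid receptor complexes, had 417, 405 and 409 CPM in CDDO-Me 72 h libraries, 352, 352 and 405 CPM in CDDO-Me 24 h libraries and 363, 356 and 349 CPM in DMSO libraries. The 72 h libraries were above all DMSO libraries. The log2 fold change at 72 h against DMSO was 0.21 ± 0.07 (SE) (adjusted p = 0.134). The adaptor STIP1 and the ATPase activator AHSA1 had 0.03 and 0.09, and CHORDC1 -0.11 at 72 h and -0.29 ± 0.11 (SE) at 24 h (adjusted p = 0.252). The mitochondrial HSP60 and HSP10 genes HSPD1 and HSPE1, which share a promoter region head to head, had -0.11 and 0.27 ± 0.13 (SE) at 72 h (adjusted p = 0.274).

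**Figure D3:**
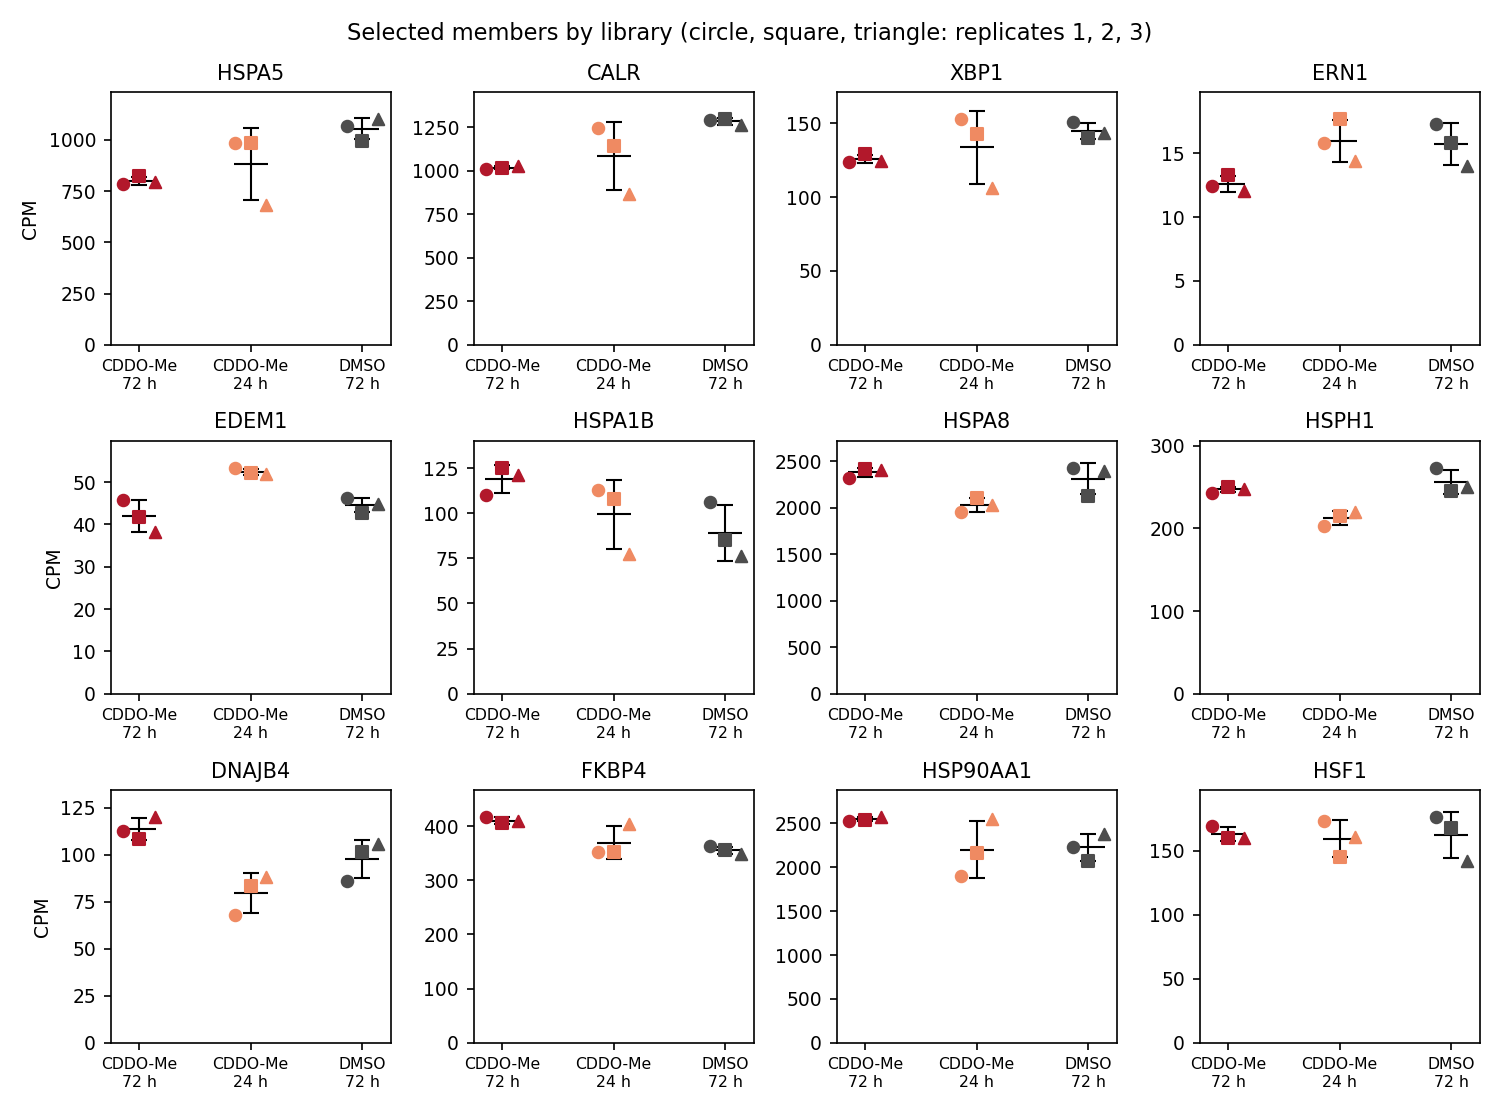
CPM (y axis, from 0) in each library of the 3 groups (x axis) for 12 genes. Points are single libraries, with circles, squares and triangles for replicates 1, 2 and 3, and black marks show mean and SD (n = 3). HSPA5, CALR, XBP1 and HSPA1B show 1 low triangle at CDDO-Me 24 h. EDEM1 and HSPH1 at 24 h and DNAJB4 at 72 h stand apart as whole groups. By narrow margins, so do HSPA8 at 24 h and ERN1 and FKBP4 at 72 h.

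Per kilobase of exon, the 41 genes spanned a wide range of levels. In CPM per kilobase, HSP90AB1 was highest at 699 ± 9.82 in CDDO-Me 72 h, 704 ± 124 in CDDO-Me 24 h and 717 ± 37.7 in DMSO libraries (SD, n = 3 each). HSPA8 followed in DMSO libraries at 477 ± 34.2, then CALR at 473 ± 7.12 and HSP90AA1 at 424 ± 29.4, and the first pair of these did not differ beyond their SDs. At 72 h CALR stood at 375 ± 2.80, below HSPA8 at 490.0 ± 10.5 and HSP90AA1 at 485 ± 4.37, so the order of these 3 differed between the groups. HSPA5 came next after these in every group, at 205 ± 4.9 in CDDO-Me 72 h, 226 ± 45 in CDDO-Me 24 h and 270.0 ± 13.7 in DMSO libraries. The lowest were ERN1 at 1.16 ± 0.0563 in CDDO-Me 72 h, 1.47 ± 0.153 in CDDO-Me 24 h and 1.44 ± 0.152 in DMSO libraries and HSPA4L at 1.36 ± 0.159 in CDDO-Me 72 h, 1.18 ± 0.117 in CDDO-Me 24 h and 1.36 ± 0.181 in DMSO libraries, which overlap in DMSO libraries. Within roles, DNAJA1 was the highest and DNAJB6 the lowest cytosolic J-domain gene, STIP1 the highest and CHORDC1 the lowest HSP90 co-chaperone, and HSPA8 the highest and HSPA1A the lowest HSP70 gene. In the ER, P4HB was highest and PDIA6 lowest of the isomerases, SDF2L1 highest and DNAJB9 lowest of the BiP partners, HSPA5 highest and HYOU1 lowest of the large chaperones, and HERPUD1 highest and EDEM1 lowest of the degradation genes. MANF was above CRELD2, XBP1 above ERN1, CALR above CANX and HSPD1 above HSPE1 in every group. Of the HSP70 exchange factors, BAG3 was highest in DMSO libraries and HSPA4 in CDDO-Me 72 h libraries, within their SDs. Exon lengths count the exons of every transcript, so a gene with many isoforms is understated.

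As a share of all counts, the 21 ER genes made up 0.595% to 0.605% in CDDO-Me 72 h, 0.565% to 0.697% in CDDO-Me 24 h and 0.651% to 0.7% in DMSO libraries. The 72 h libraries were all below DMSO. The 20 cytosolic genes made up 1.05% to 1.06% in CDDO-Me 72 h, 0.907% to 1.04% in CDDO-Me 24 h and 0.955% to 1.06% in DMSO libraries, which overlap. Replicates at 72 h were the tightest, with a median coefficient of variation over the 41 genes of 2.4%, against 10.42% at 24 h and 7.19% in DMSO libraries. In bulk RNA, fewer cells of a kind and less RNA per cell cannot be told apart.

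The third CDDO-Me 24 h library was the lowest of its group for 18 of 21 ER genes, but for 5 of 20 cytosolic genes, of which it was the highest for 11. Relative to the DMSO mean, its median over the ER genes was -0.18 on the log2 scale, where the 72 h libraries had -0.13, -0.12 and -0.19 and the other two CDDO-Me 24 h libraries -0.03 and 0.02. Other lists also differed in that library. The NRF2 target median was 2.27 in it, 1.06 and 1.1 in the others of its group and 1.93 to 1.97 at 72 h. The fibroblast marker median was -0.40, against 0.33 and 0.25 in the others of its group. That of 5 nuclear-retained RNAs, only a possible sign of RNA quality, was -0.62, against 0.23 and 0.63. Beside the negative ER values at 72 h, those RNAs had library medians of -0.49, -0.55 and -0.53 in CDDO-Me 72 h and 0.38, -0.08 and -0.42 in DMSO libraries. Their sums were 266 to 308 CPM in CDDO-Me 72 h, 276 to 462 in CDDO-Me 24 h and 294 to 448 in DMSO libraries. At 72 h against DMSO their median log2 fold change was -0.63, with 5 of 5 negative, 3 of 5 lower in every library and 0 called by edgeR, at an adjusted or an unadjusted p under 0.05. The part of these differences in the chaperone values was not tested. Between groups, smooth muscle markers summed to 344 to 362 CPM in CDDO-Me 72 h, 358 to 418 in CDDO-Me 24 h and 494 to 618 in DMSO libraries, and epithelial markers to 128 to 137, 154 to 221 and 225 to 269 in the same order. Their part in the chaperone values was likewise not tested.

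**Figure D4:**
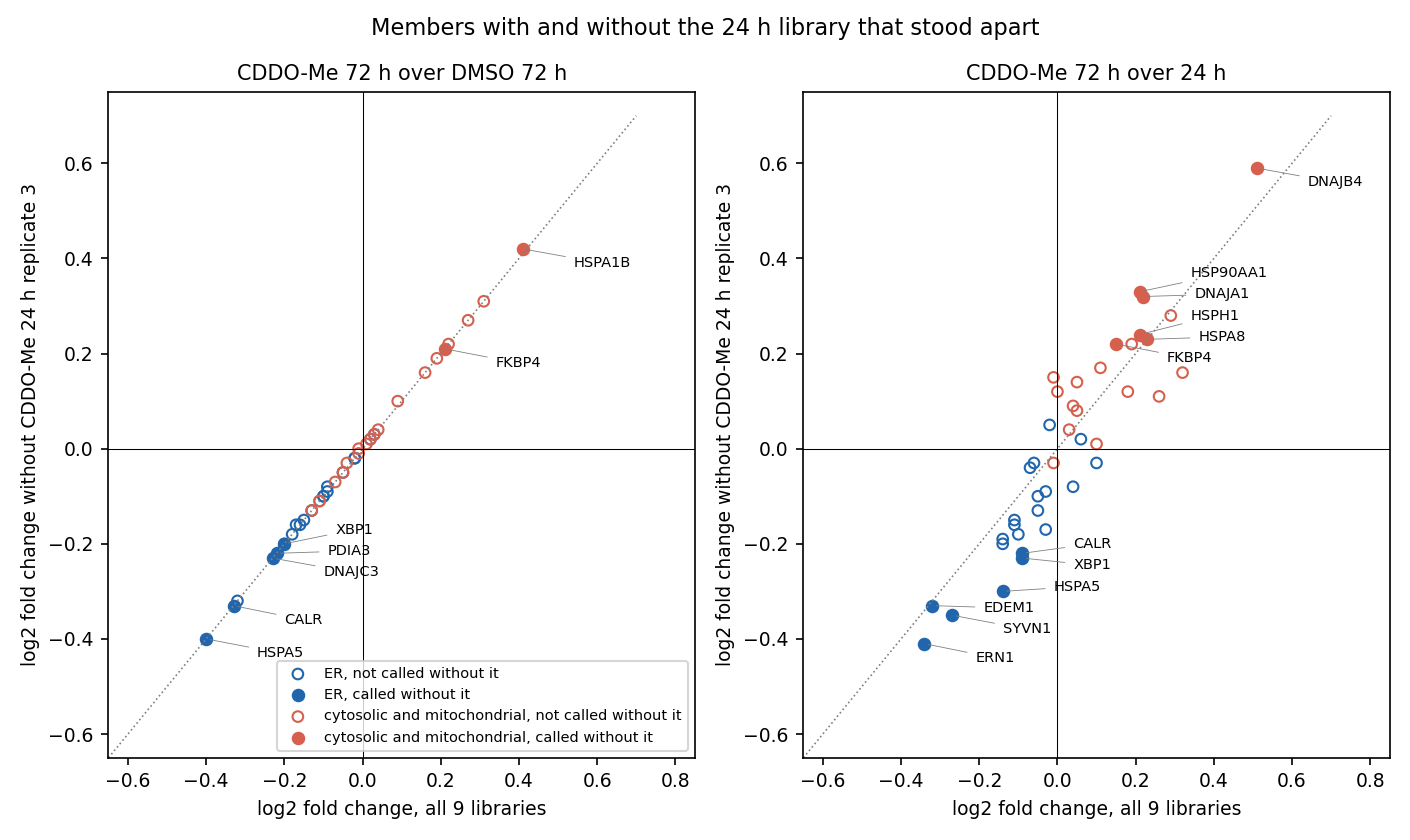
Log2 fold change of the 41 genes without the third CDDO-Me 24 h library (y axis) against that with all 9 libraries (x axis), for CDDO-Me 72 h over DMSO (left) and over CDDO-Me 24 h (right). Blue is ER, red cytosolic and mitochondrial, and filled points were called (adjusted p under 0.05) without that library. On the left points lie on the diagonal, so the calls and not the values differ, while on the right ER genes such as HSPA5 (-0.14 and -0.30) move down.

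Genes with an ER stress element are described beside the rest of the ER genes. Of the 6 ER genes with the element, 5 were lower in every CDDO-Me 72 h library than in every DMSO library, with a median log2 fold change of -0.20 and a range of -0.40 (HSPA5) to 0.02 (CRELD2). Of the 14 ER genes with a window but without it, 6 were lower in this way, with a median of -0.12 and a range of -0.32 to 0.03. Among these 14, HERPUD1, HYOU1 and SDF2L1 hold the second ER stress element, and of them HERPUD1 alone was lower in this way. Of all genes tested, 15.2% were lower in this way. The 4 cytosolic genes with a heat shock element had a median of -0.02 at 72 h against DMSO and -0.15 at 24 h, and the 14 with a window but without it 0.02 and -0.04. The 8 genes with the NRF2 core letters had a median of -0.06 at 72 h and -0.07 at 24 h. Of these 8, 3 were lower in every CDDO-Me 72 h library and 1 in every CDDO-Me 24 h library than in every DMSO library, and 0 were higher in this way at either time, against 15.2% of all genes lower and 15.5% higher at 72 h and 6.74% lower and 6.73% higher at 24 h.

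Other genes of the same pathways, 139 in 9 lists, were read in the same fit, and 138 were tested. The one left out was HSPA6, the strictly heat-inducible HSP70 gene, with 8, 12 and 7 counts in CDDO-Me 72 h, 12, 9 and 7 in CDDO-Me 24 h and 4, 5 and 8 in DMSO libraries. At 72 h against DMSO 3 of 138 were called higher and 2 lower, where 2.89% of all genes were called higher and 3.13% lower. The higher ones were FKBP9, an ER prolyl isomerase (log2 fold change 0.37 ± 0.08, adjusted p = 0.0145), RNF5, a ubiquitin ligase of the ER membrane (0.28 ± 0.07, adjusted p = 0.0284), and PFDN5, a prefoldin subunit that hands actin and tubulin to the chaperonin TRiC (0.31 ± 0.09, adjusted p = 0.0444). The lower ones were CREB3L2, an ER-bound transcription factor of secretory genes (-0.44 ± 0.10, adjusted p = 0.0168), and TXNDC11, an ER thioredoxin-like protein (-0.36 ± 0.09, adjusted p = 0.0293). None of 138 was called at 24 h against DMSO, with 9 higher and 3 lower at an unadjusted p under 0.05 against 12.8% of all genes, or at 72 h against 24 h, with 9 higher and 7 lower against 13.2%. All 139 were tested without the third CDDO-Me 24 h library. Called then were 10 higher and 6 lower at 72 h against DMSO, where 6.26% and 6.62% of all genes were. At 24 h against DMSO the counts were 7 higher and 4 lower, against 5.71% and 5.11%. At 72 h against 24 h they were 8 higher and 5 lower, against 5.19% and 6.84%.

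By list at 72 h against DMSO, 0 of 27 other ER folding genes, 2 of 18 ER oxidoreductases and isomerases (1 in each direction), 1 of 22 other ER degradation genes, 1 of 11 other unfolded protein response regulators, 0 of 4 other heat shock factor genes, 0 of 20 other HSP70 co-chaperones, 0 of 12 other HSP90 co-chaperones, 0 of 10 other mitochondrial chaperones and 1 of 14 TRiC and prefoldin subunits were called. The median log2 fold change of the other ER folding genes was -0.01, with 13 of 27 positive. In the lists without a call the most expressed genes were GANAB, the ER glucosidase II (824 CPM in CDDO-Me 72 h and 819 in DMSO libraries), the HSP70 co-chaperone ST13 (315 and 299), the HSP90 co-chaperone PTGES3 (367 and 346), the mitochondrial HSP70 gene HSPA9 (413 and 413) and the HSF1-binding HSBP1 (147 and 136), all given as group means in that order. At 24 h the most expressed genes of the remaining lists had log2 fold changes against DMSO of 0.12 for VCP, the ATPase that pulls proteins out of the ER, 0.05 for SERPINH1, the collagen chaperone, -0.04 for CCT3, a TRiC subunit, and 0.03 for TMBIM6, an ER membrane protein. Of 8 genes of the integrated stress response, 1 was called higher against DMSO at 72 h (SESN2) and 3 at 24 h (TRIB3, CHAC1 and SESN2). Of all genes, 2.89% were called higher at 72 h and 0.969% at 24 h. Without the third CDDO-Me 24 h library, 2 of the 8 were called higher at 72 h, against 6.26% of all genes. At 24 h 5 were then higher and 1 lower, against 5.71% and 5.11%. The sum of the 8 was 715 to 717 CPM in CDDO-Me 72 h, 722 to 796 in CDDO-Me 24 h and 571 to 648 in DMSO libraries.

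Exons of 6 of the 41 genes (FKBP4, HSPE1, DNAJB11, PDIA3, PDIA6 and SYVN1) overlap those of other annotated genes over more than 10% of their length, up to 25.2% for PDIA6. The library kit does not keep strand, so reads from overlapping genes cannot be told apart there.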

How the data were processed

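The authors deposited whole-number read counts per gene for 9 libraries, made from polyadenylated RNA with a kit that does not keep strand, per the labels' protocols. STAR, SAMtools and featureCounts of the Subread package and the hg38 (GRCh38) build are named in the submitters' processing notes. The annotation release and the handling of reads that match several places were not given in the sources used here. From these counts, genes were filtered with edgeR 4.0.16 (filterByExpr), scaled by TMM and fitted in 1 quasi-likelihood model over the 3 groups, with no covariate, and p was adjusted by Benjamini-Hochberg over the 14965 genes tested. The other tools were limma 3.58.1 and DESeq2 1.42.0, in R 4.3.3. Alternatives were other scalings, filters and tools, the replicate number as a block, and leaving out libraries.

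The 41 genes, the lists of other pathway genes and the marker lists were chosen with earlier results of these data known. Values per library were given for 13 genes chosen by role and for every gene called, other genes were named where highest or lowest of their role per length, and from each list of other genes up to 3 called genes or else the most expressed one was named. The other genes named with values, among them CALR, EDEM1, HSPA8 and FKBP4, and the 3 named stress response genes, were chosen after their values were seen.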

Additional observations from a re-analysis of the deposited data

Results flagged for a closer look

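DNAJB4 drew attention because its level differed between CDDO-Me 72 h and CDDO-Me 24 h. With no 24 h solvent group, this comparison carries time in culture as well as length of treatment. A difference in the response to CDDO-Me was therefore not tested. The log2 fold change against DMSO was 0.22 at 72 h and -0.29 at 24 h, and the difference between them, which is the comparison of CDDO-Me 72 h with CDDO-Me 24 h, was 0.51 ± 0.10 (SE, adjusted p = 0.0299 by edgeR's quasi-likelihood test, 7.56e-07 to 0.201 over 19 alternatives). Every CDDO-Me 72 h library was above every CDDO-Me 24 h library. Leaving out any single CDDO-Me 72 h library ended the call.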

How the results depend on the processing

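The number of calls depended on the third CDDO-Me 24 h library and on the tool. Directions mostly did not, except for the ER genes at 24 h against DMSO. Their median log2 fold change was -0.06 with all libraries and 0.00 without the third CDDO-Me 24 h library. It was 0.03 with the first DMSO library left out as well. Called counts are given for cytosolic (with mitochondrial), ER and all genes, and all-gene counts were 901 at 72 h against DMSO, 321 at 24 h against DMSO and 152 at 72 h against 24 h with edgeR over 9 libraries. DESeq2 called 2 ER genes and 1207 in all at 72 h against DMSO. At 24 h against DMSO it called 1 cytosolic gene and 546 genes in all. At 72 h against 24 h it called 1 cytosolic gene (DNAJB4), 1 ER gene and 388 in all. With limma-voom and weights per library the counts were 5 cytosolic, 4 ER and 2604 in all at 72 h against DMSO, 4 cytosolic and 1640 in all at 24 h against DMSO, and 6 cytosolic, 9 ER and 2938 in all at 72 h against 24 h. With no filter on low counts they were 1 cytosolic, 2 ER and 1249 in all at 72 h against DMSO. They were 662 in all at 24 h against DMSO, and 1 cytosolic (DNAJB4) and 507 in all at 72 h against 24 h. In fits of the 2 groups compared they were 2 cytosolic, 3 ER and 1776 in all at 72 h against DMSO, 100 in all at 24 h against DMSO, and 0 cytosolic at 72 h against 24 h, where DNAJB4 had an adjusted p of 0.0512.

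With the third CDDO-Me 24 h and the first DMSO library both left out, the counts were 5 cytosolic, 5 ER and 2724 in all at 72 h against DMSO, 7, 3 and 3464 at 24 h against DMSO, and 7, 10 and 3471 at 72 h against 24 h. The 3 ER genes called at 24 h against DMSO were all higher. In that setting 2 values changed direction and were called. They were HSPA1A at 0.32 (adjusted p = 0.00918) at 24 h against DMSO, from 0.00 with all libraries, and HSP90AB1 at 0.15 (adjusted p = 0.0460) at 72 h against 24 h. HSPA1B was also called higher at 24 h against DMSO there, at 0.45 (adjusted p = 5.16e-05). With all libraries it had 0.16 (adjusted p = 0.725) and was not called. Leaving out 1 library at a time gave 0 to 2 cytosolic, 0 to 5 ER and 401 to 1972 genes in all at 72 h against DMSO, 0 to 3, 0 and 134 to 1657 at 24 h against DMSO, and 0 to 6, 0 to 6 and 32 to 1843 at 72 h against 24 h. The highest of each range came without the third CDDO-Me 24 h library. Without CDDO-Me 24 h replicate 1, HSPA5 was called lower at 72 h against DMSO (adjusted p = 0.049, range over the alternatives 2.47e-06 to 0.212). The cause of these differences was not tested.

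The labels do not say whether a replicate number marks a shared culture or day. Deviations of same-numbered libraries from their group means correlated at -0.03 to 0.08. These values cannot decide it, since libraries with different numbers were not compared. With the replicate number as a block, 963 genes were called at 72 h against DMSO, 358 at 24 h against DMSO and 219 at 72 h against 24 h, and DNAJB4 was still the 1 call among the 41. With 3 libraries a group, 24 h effects also carry the difference in culture time. Counts limit the 41 genes little, since the lowest was 166.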
